A study of Homo sapiens with 8 samples.

Results

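The cyclins, kinases and inhibitors that set the pace of the G1 phase, together with the transcription factor MYC, were followed across the 4 cell lines of the MCF10A progression series. The set holds 10 of the 56632 genes in the deposited count table: the D-type cyclins CCND1, CCND2 and CCND3, the E-type cyclins CCNE1 and CCNE2, the kinases CDK4 and CDK6, the inhibitors CDKN1B and CDKN1C, and MYC. All 10 were found by their Ensembl identifiers, and all 10 passed the filter on low counts that left 18431 genes for testing. These genes were chosen on their levels in these same libraries, so their differences between lines are a description and carry no p-value. CCND2 passed that filter through 1 line alone.

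Cells leave G1 when cyclin D bound to CDK4 or CDK6, and then cyclin E bound to CDK2, phosphorylate the retinoblastoma protein RB1 and release E2F transcription factors, which switch on the genes of DNA replication. Growth factors such as EGF act on this step through the RAS and ERK pathway, which raises transcription of CCND1 and MYC. The Cip/Kip proteins p27 (CDKN1B) and p57 (CDKN1C) hold the CDK2 complexes inactive, while the INK4 proteins block CDK4 and CDK6. MYC pairs with MAX on E-box sequences and drives growth genes, and CCND1, CCNE1, CDK4 and MYC are known to be amplified or overexpressed in breast carcinomas.

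RNA was measured in 2 biological replicates of each line, grown as three-dimensional cultures in Matrigel for 8 days in medium with 2% horse serum. M1 is MCF10A, a spontaneously immortalized, non-tumorigenic mammary epithelial line, and it was grown with 10 ng/ml EGF. M2 is MCF10AT1k.cl2, made from MCF10A by transfection with activated T24-HRAS and passage as a xenograft, and it was also grown with 10 ng/ml EGF. M3 (MCF10Ca1h) and M4 (MCF10CA1a.cl1) came from carcinomas that arose in M2 xenografts, descend in this way from the HRAS-transfected line, and were grown without EGF. Each stage of this series is therefore a single line, and in a comparison of M3 with M2 or of M4 with M1 the line and the absence of EGF cannot be told apart.

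The 8 libraries held 69669970 to 107350344 counts each. The replicates were unequally close, with a coefficient of variation between them (from the common dispersion of each line in edgeR) of 0.0577 in M2 and of 0.274 to 0.377 in the other lines. The transfected gene, HRAS, had 12748 and 11373 counts in the M1 libraries, 16274 and 10799 in the M2 libraries, 21316 and 28494 in the M3 libraries and 38035 and 27506 in the M4 libraries. The difference in HRAS between M2 and M1 did not pass the test (log2 fold change 0.10 ± 0.15 SE, adjusted p = 0.736, edgeR), so its count did not check these labels, and it was higher in M4 than in M1 (1.23 ± 0.15, adjusted p = 0.00119). The epithelial markers EPCAM, CDH1, KRT5, KRT14, KRT17, KRT18, LAMB3 and TP63 were detected in every library, with a summed level of 8305 to 14433 CPM. Of the markers of other cells, COL1A2 and CD3E were at 0 in every library and PTPRC and LUM never exceeded 3 counts, while COL1A1, DCN and CD14 were present. Of the 6 fibroblast markers 3 to 5 were detected per library, and they summed to 8.62 to 60.1 CPM in M1, 72.4 to 74.4 CPM in M2, 16.1 to 17.5 CPM in M3 and 6.47 to 7.58 CPM in M4. The endothelial markers measured (CDH5, VWF and KDR) summed to at most 3.12 CPM and the immune markers to at most 24.8 CPM in any library, and the part of any of these lists in the results was not tested.

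The assignment of 2 libraries is in doubt. Deviations of each gene from its mean were compared, over 249 genes, between the deposited counts and the per-sample columns of a table that accompanies the study. The column headed M2 replicate 1 followed, across genes, the library whose label is M1 replicate 2 (r = 0.978) and not its own label (r = -0.0104). The column headed M1 replicate 2 matched the library labelled M2 replicate 1 (r = 0.960), and the other 6 columns matched the libraries of their own labels. Exchanging the 2 would place the M2 libraries, the closest pair as labelled (coefficient of variation 0.0577), in different lines. It left 0 of 18431 genes called in M2 against M1. Which assignment is right was not tested. The sample labels are kept throughout. Main differences that involve M1, and several with M2, are also given with the 2 exchanged, with both left out, or in both ways. Leaving both out leaves M1 and M2 with 1 library each, which is then assumed to vary like the other lines. HRAS was called higher in M4 than in M1 also on exchange (1.13, adjusted p = 0.0139) and with both left out (1.16, adjusted p = 0.0293).

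The D-type cyclins, which join CDK4 and CDK6 early in G1, differed most plainly between M1 and M2 on one side and M3 and M4 on the other. CCND1 (ENSG00000110092, chr11:69455924-69469242 in GRCh37, plus strand) was at 61.3 and 76.3 CPM with M1, 75.4 and 78.7 with M2, 124 and 175 with M3 and 156 and 156 with M4, where CPM is the count relative to the TMM-scaled library size. All 4 libraries of M3 and M4 stood above all 4 libraries of M1 and M2. The M1 mean was 68.8 ± 10.6 CPM and the M2 mean 77.1 ± 2.35, against 149 ± 36.6 for M3 and 156 ± 0.229 for M4 (SD, n = 2). The step lay between M2 and M3, with a log2 fold change of 0.96 ± 0.19 (SE), against 0.16 ± 0.19 for M2 against M1 and 0.06 ± 0.19 for M4 against M3. That step was 0.95 with the 2 doubtful libraries exchanged and 0.93 with both left out. M4 was 2.27-fold higher than M1 (log2 fold change 1.18 ± 0.19), and this was 1.19 with the 2 libraries exchanged and 1.35 with both left out. CCND1 shares 497 exon bases with LTO1 on the opposite strand, which had 1039 to 2376 counts. In a bulk measurement, fewer cells that express a gene and less RNA per cell cannot be told apart.

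CCND3 (ENSG00000112576, chr6:41902672-42018095, minus strand), which encodes the D-type cyclin with the broadest expression, went the other way. It was at 116 and 114 CPM for the M1 libraries, 111 and 110 for those of M2, 73.1 and 61.7 for those of M3 and 67.4 and 75.3 for those of M4. Both libraries of M3 and both of M4 stood below every library of M1 and M2. M3 was lower than M2 by a log2 fold change of -0.71 ± 0.14 (SE) and M4 lower than M1 by -0.69 ± 0.14, while M4 against M3 gave 0.08 ± 0.14. The value of M4 against M1 was -0.67 with the libraries exchanged and -0.71 with both left out. That of M3 against M2 was -0.73 with the libraries exchanged and -0.70 with both left out.

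CCND2 (ENSG00000118971, chr12:4378937-4414519, plus strand), the D-type cyclin best known from haematopoietic cells and the ovary, was seen in M3 alone. It had 1074 and 816 counts in the M3 replicates, or 13.6 and 9.37 CPM, and 0 counts in all 6 libraries of M1, M2 and M4. A count of 0 allows up to 3 counts per library. Against that floor the M3 mean was at least 315-fold higher than M1, 318-fold higher than M2 and 354-fold higher than M4. For the lower M3 library these bounds were 257-fold, 260-fold and 289-fold. The antisense gene CCND2-AS1, which shares 162 exon bases with CCND2 on the opposite strand, was at 0 in all 8 libraries. The 7 tested protein-coding genes within 0.5 Mb of CCND2 had a median log2 fold change of -0.06 in M3 against M2 and of -0.13 in M4 against M3. By edgeR none of these 7 was called in either comparison (0 and 2 at an unadjusted p under 0.05, and 0 by DESeq2 in both). Of all genes 4.15% and 10.3% were called. The nearest of them, TIGAR, which encodes a fructose bisphosphatase, had 3447 and 2351 counts with M2, 2524 and 2406 with M3 and 4828 and 3394 with M4.

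**Figure D1:**
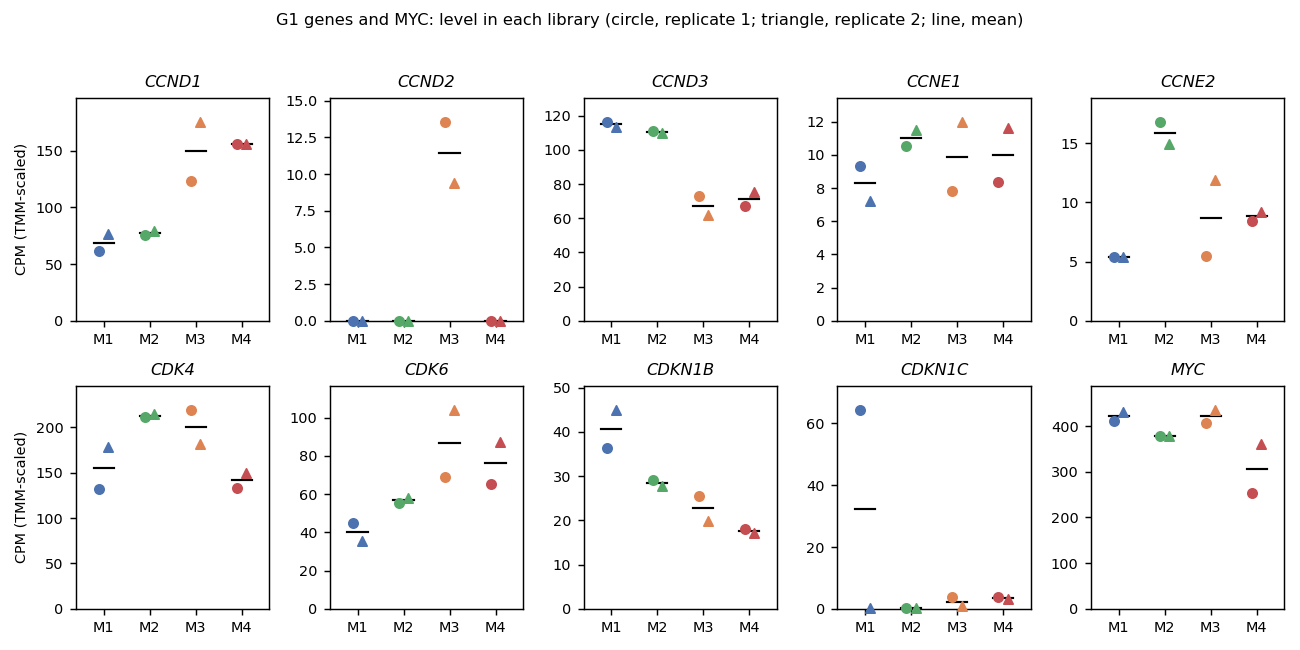
Level of each of the 10 genes in every library, in CPM on a linear axis that starts at 0, with a circle for replicate 1, a triangle for replicate 2 and a line at the mean of the 2. CCND1 in M3 and M4 lies above every M1 and M2 library and CCND3 below, CCND2 is above 0 in M3 alone, CDKN1B descends from M1 to M4, and CDKN1C reaches 64.4 CPM in a single M1 library.

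To compare genes with each other, levels were divided by the length of the canonical transcript. On this scale CCND3 was the main D-type cyclin of M1 and M2, at 56.8 ± 1.00 and 54.4 ± 0.398 CPM per kb, against 16.2 ± 2.50 and 18.2 ± 0.554 CPM per kb for CCND1. In M3 and M4 the levels of the pair lay close together, with CCND1 at 35.3 ± 8.63 and 36.8 ± 0.0541 CPM per kb and CCND3 at 33.3 ± 3.99 and 35.2 ± 2.72 CPM per kb. CCND1 made up 22.2% ± 2.97 of the D-type total of M1 and 25.0% ± 0.709 of that of M2, against 49.9% ± 9.31 for M3 and 51.1% ± 1.90 for M4. CCND2 added 1.77 ± 0.457 CPM per kb in M3, which was 3.10% and 1.97% of the D-type total in its replicates. The D-type total itself ranged from 67.3 to 74.0 CPM per kb over the 8 libraries, a ratio of 1.10. That near-constant total depends on the length chosen: with the length of all annotated exons it ran from 33.1 to 48.7 CPM per kb, and CCND1 then made up 41.9% in M1 and 72.6% in M4. The CCND1 share was higher in M3 and M4 than in M1 and M2 on both length scales.

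**Figure D2:**
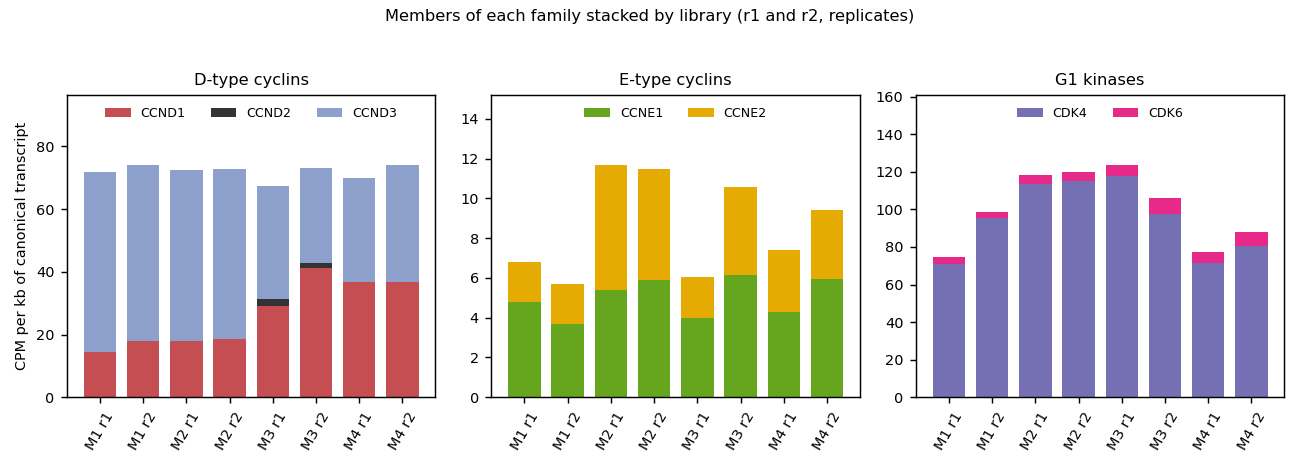
Levels of the D-type cyclins, E-type cyclins and G1 kinases in each library, stacked by gene, in CPM per kb of canonical transcript on a linear axis that starts at 0. The D-type bars stay between 67.3 and 74.0 CPM per kb while the CCND1 part grows in M3 and M4, CCNE2 is largest in M2, and CDK4 makes up 91.5 to 96.9% of each kinase bar.

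The E-type cyclins act later in G1 with CDK2 and are themselves targets of E2F. CCNE1 (ENSG00000105173, chr19:30302898-30315219, plus strand) was at 9.35 and 7.22 CPM in the M1 libraries, 10.5 and 11.5 in the M2 libraries, 7.81 and 11.998 in the M3 libraries and 8.35 and 11.6 in the M4 libraries. Neighbouring lines in the order M2, M4, M3, M1 overlapped in each case. M4 against M1 gave a log2 fold change of 0.27 ± 0.28 (SE), which is no larger than its error, and M2 against M1 gave 0.41 ± 0.28, or -0.09 with the libraries exchanged.

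CCNE2 (ENSG00000175305, chr8:95891998-95908906, minus strand) varied far more. It was at 5.38 and 5.40 CPM with M1, 16.8 and 14.9 with M2, 5.48 and 11.9 with M3 and 8.44 and 9.20 with M4. Both M2 libraries lay above every other library, and both M1 libraries lay below every other library, though by little below M3 replicate 1. M2 was 2.94-fold higher than M1 as labelled (log2 fold change 1.56 ± 0.34, SE), and with both doubtful libraries left out the value was 1.48. With the libraries exchanged it was -0.13 ± 0.66, so that this difference rests on which library is M1 and which is M2. The exchange pairs libraries at 5.38 and 16.8 CPM as M1 and at 5.40 and 14.9 CPM as M2, further apart than the pairs as labelled. The replicates of M3 differed by 2.17-fold, and M4 against M3 gave 0.02 ± 0.33. M3 against M2 gave -0.87 ± 0.34 as labelled and -0.22 ± 0.66 on exchange. CCNE2 lies across INTS8 on the opposite strand, with 1629 shared exon bases, and whether counting used the strand is not given in the sources used here, so the reads of the 2 genes may be split wrongly. INTS8 had 2467 and 1982 counts with M1, against 4612 and 3123 with M2.

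Of the kinases that the D-type cyclins activate, CDK4 was by far the more abundant message. CDK4 (ENSG00000135446, chr12:58141510-58149796, minus strand) was at 132 and 178 CPM for the M1 libraries, 211 and 214 for those of M2, 220 and 181 for those of M3 and 134 and 150 for those of M4. M2 and M3 overlapped at the higher level, and M1 and M4 overlapped at the lower one. M4 was lower than M3 by a log2 fold change of -0.50 ± 0.18 (SE) and M2 stood above M1 by 0.45 ± 0.18, and M4 against M1 gave -0.13 ± 0.18, or 0.10 with both doubtful libraries left out. With the libraries exchanged M2 against M1 was 0.19, and with both left out it was 0.70. CDK4 shares 1369 exon bases with TSPAN31 on the opposite strand, and the counts of TSPAN31 were 1424 to 2720 against 10950 to 21526 for CDK4.

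CDK6 (ENSG00000105810, chr7:92234235-92465887, minus strand) was at 45.2 and 35.3 CPM in the M1 libraries, 55.5 and 57.9 in the M2 libraries, 69.1 and 104 in the M3 libraries and 65.1 and 87.2 in the M4 libraries. M3 and M4 overlapped with each other and both stood above M2, which stood above M1 as labelled. M2 against M1 gave 0.50, which became -0.11 on exchange, so that the order of these lines depends on the assignment. M3 against M2 gave 0.61 as labelled and 0.90 on exchange. M4 was 1.89-fold higher than M1 (log2 fold change 0.92 ± 0.24, SE), a value that was 0.60 with the libraries exchanged and 0.75 with both left out. Per kb, CDK4 exceeded CDK6 in every line, at 83.3 ± 17.4 against 3.45 ± 0.600 CPM per kb in M1 and at 76.0 ± 6.10 against 6.53 ± 1.34 CPM per kb in M4. CDK4 thus made up 95.9% ± 1.49 of the kinase total in M1 and 92.1% ± 0.910 in M4. The antisense gene CDK6-AS1, which shares 86 exon bases with CDK6, had 33 and 32 counts in M3 and at most 10 in any other library.

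The sequence before the CDK4 start is shown because MYC binds as a dimer with MAX to the E-box CACGTG, and among the 8 promoters of 5 members in the RefSeq table used here (CCND3, CDK6, CDKN1B, CDK4 and CCNE1, GRCh38.p14) it was the only one with an E-box. The 250 bases are printed along the gene's strand with the E-boxes in capitals, from chr12:57752311-57752560 of GRCh38.p14, minus strand:
CDK4: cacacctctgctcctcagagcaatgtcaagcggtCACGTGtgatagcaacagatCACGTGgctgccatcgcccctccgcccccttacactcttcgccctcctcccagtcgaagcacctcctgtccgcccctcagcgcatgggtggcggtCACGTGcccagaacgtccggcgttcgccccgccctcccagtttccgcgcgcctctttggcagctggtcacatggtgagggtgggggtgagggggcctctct
It holds 3 E-boxes, starting 216, 196 and 101 bases before the start; the motif is its own reverse complement, so both strands are covered. Of 35116 promoters of the same length, 6.34% hold at least 1 E-box and 28 (0.0797%) hold 3 or more. This is a match of letters and not a measurement of binding.

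CDKN1B (ENSG00000111276, chr12:12838432-12875303, plus strand) encodes p27, the inhibitor that restrains cyclin E with CDK2 in resting cells. It was at 36.4 and 45.0 CPM with M1, 29.1 and 27.8 with M2, 25.6 and 19.8 with M3 and 18.1 and 17.2 with M4. No library of one line overlapped a library of the next, so the order M1, M2, M3, M4 was without overlap, and CDKN1B was the only one of the 10 for which that held. The mean was 40.7 ± 6.10 CPM for M1, 28.4 ± 0.945 for M2, 22.7 ± 4.08 for M3 and 17.7 ± 0.645 for M4 (SD, n = 2). M4 stood 2.30-fold below M1 (log2 fold change -1.20 ± 0.18, SE), with single steps of -0.52 ± 0.18, -0.33 ± 0.18 and -0.36 ± 0.18. With the libraries exchanged, M4 against M1 was -0.89 and M2 against M1 was 0.15, so that the order of M1 and M2 depends on the assignment while M4 stayed lowest. The step from M2 to M3 was then -0.68. Leaving both out gave -1.04 for M4 against M1. GPR19, whose span overlaps CDKN1B on the opposite strand without shared exon bases, had at most 102 counts in any library.

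CDKN1C (ENSG00000129757, chr11:2904443-2907005, minus strand) encodes p57, an imprinted inhibitor of the same family, and it was set by a single library. The library labelled M1 replicate 1 had 5332 counts, or 64.4 CPM, and the library labelled M1 replicate 2 had 29 counts, or 0.354 CPM. The M2 libraries had 9 and 10 counts, the M3 libraries 293 and 83, and the M4 libraries 418 and 236. The 182-fold gap between the M1 replicates in CPM exceeded every gap between the remaining lines, so an M1 mean describes neither replicate. Exchanging the 2 doubtful libraries does not close this gap, because the library labelled M2 replicate 1 held 9 counts. M4 against M1 was -3.27 ± 1.68 (log2 fold change, SE), and it was 3.26 without M1 replicate 1, which turns the direction. It was -4.26 without M1 replicate 2, and also with both doubtful libraries left out, and CDKN1C passed the call rule for all genes in these 3 fits and without the filter on low counts, though not with all 8 libraries under the filter. M3 and M4 stood above M2 in each of their libraries, at 0.953 to 3.70 CPM against 0.0884 and 0.142 CPM, and M4 and M3 overlapped with each other.

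Neighbours of CDKN1C on chromosome 11 were read for the same libraries. KCNQ1OT1, the long noncoding RNA of the same imprinted domain, which is known to act in cis on CDKN1C, had 577 and 139 counts for the M1 libraries, 114 and 57 for those of M2, 95 and 56 for those of M3 and 1040 and 536 for those of M4. Its mean was highest in M4, although M1 replicate 1 lay above M4 replicate 2, and it was higher in the first than in the second M1 library, and it was named after its values were seen. Within 0.5 Mb, 8 protein-coding genes were tested, with a median log2 fold change of 0.01 in M4 against M1. Of these 8, 2 were called, PHLDA2 higher (2.35) and OSBPL5 lower (-1.21), beside 20.7% of all genes. PHLDA2, another imprinted gene of the domain, had 3577 and 2693 counts with M1, against 23078 and 14496 with M4.

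MYC (ENSG00000136997, chr8:128747680-128755197, plus strand) varied little across the lines. It was at 411 and 431 CPM in the M1 libraries, 377 and 378 in the M2 libraries, 406 and 436 in the M3 libraries and 252 and 362 in the M4 libraries. The M4 replicates were both below every other library, and they were also the pair that differed most, by 1.43-fold. M4 gave a log2 fold change of -0.46 ± 0.19 (SE) against M1 and the same against M3, and leaving out each library in turn moved the value against M1 between -0.72 and -0.21. On exchange M4 against M1 was -0.36, and it was -0.42 with both left out. Per kb MYC stood at 113 ± 3.75 CPM for M1, 101 ± 0.135 for M2, 113 ± 5.57 for M3 and 82.5 ± 20.8 for M4, in the range of CDK4 and above each of the cyclins in every line. CASC11, on the opposite strand with 194 shared exon bases, had at most 33 counts in any library. PVT1, the noncoding gene next to MYC that is often amplified with it, was at 16.3 to 26.1 CPM and was not called in any of the 4 comparisons (log2 fold change 0.27 ± 0.16 in M4 against M1, adjusted p = 0.229, edgeR). MAX, the partner of MYC, gave -0.01 ± 0.12 in M4 against M1 (adjusted p = 0.953, edgeR).

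Counted by the rule used for all genes (edgeR, adjusted p under 0.05 and an absolute log2 fold change above 1), 1 of the 10 members was called in M2 against M1, where 3.37% of all genes tested were called. It was CCNE2. In M3 against M2 it was 1 of 10, CCND2, beside 4.15% of all genes. In M4 against M3 it was again CCND2, now lower, 1 of 10 beside 10.3% of all genes. In M4 against M1 there were 2 of 10, CCND1 higher and CDKN1B lower, beside 20.7% of all genes. Since the members were selected on these levels, nothing is read from these counts. With the 2 libraries exchanged, CCNE2 and CDKN1B were not called and CCND1 still was. When each of the 8 libraries was left out in turn, CCNE2 in M2 against M1 was called in 2 of 8 fits, which were those without an M3 library. The 4 comparisons share libraries, as each of the 4 lines stands in 2 of them.

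**Figure D3:**
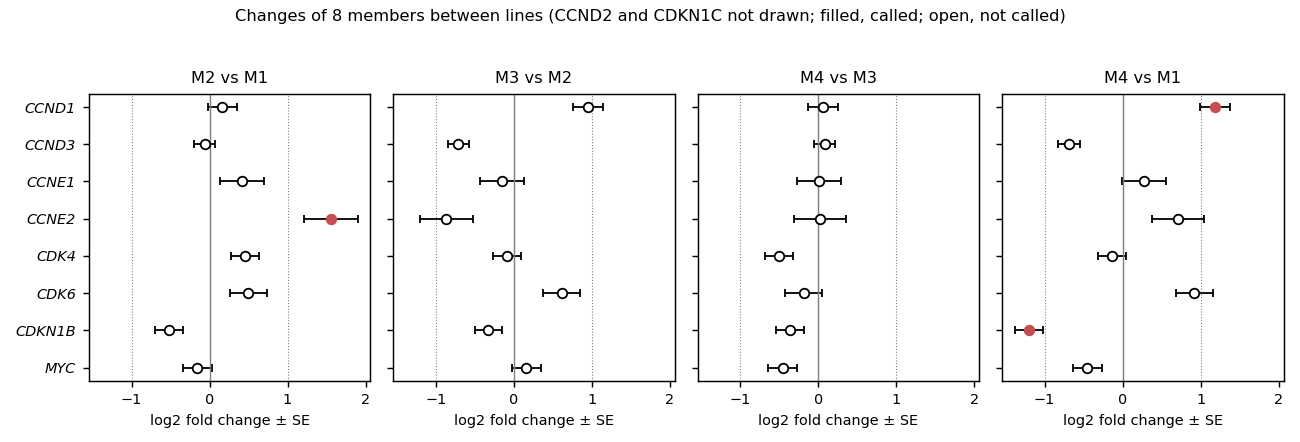
Log2 fold changes with standard errors for 8 members in the 4 comparisons; filled points passed the call rule, open points did not, and dotted lines mark a change of 1 on the log2 scale. CCND1 and CCND3 lie apart from 0 in opposite directions in M3 against M2 and in M4 against M1, and lie at 0.06 and 0.08 in M4 against M3.

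**Figure D4:**
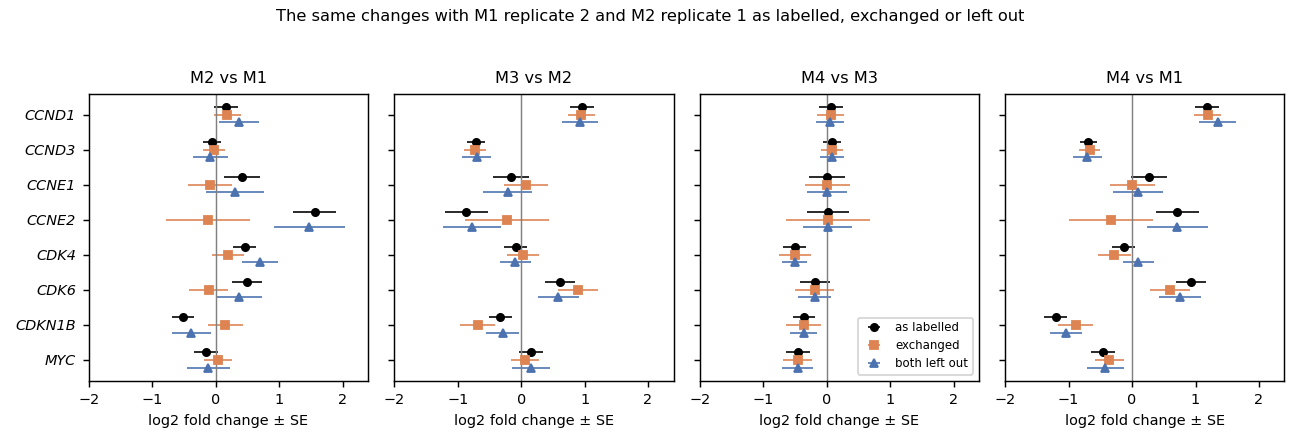
The same log2 fold changes with standard errors when the libraries labelled M1 replicate 2 and M2 replicate 1 are kept as labelled, exchanged or both left out. CCNE2 in M2 against M1 moves from 1.56 to -0.13 on exchange, while CCND1 in M4 against M1 stays between 1.18 and 1.35.

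The genes whose levels followed a member most closely were sought among 11940 protein-coding genes, for the 3 members with the widest range between lines, by Pearson's r of log2 CPM over the 8 libraries. This measure is a description, since the 8 points come from 4 lines and 2 libraries can set it. Nearest to CCND2 were DPY30 (r = 0.993), a subunit of histone methyltransferase complexes, RHOJ (0.991), a small GTPase known from endothelial cells, and TENM2 (0.986), a teneurin adhesion protein. RHOJ had 484 and 503 counts in M3 and at most 23 elsewhere, while DPY30 had 4926 and 4922 counts in M3 and 2484 to 3979 elsewhere. Nearest to CCNE2 were GNL3 (0.972), a nucleolar GTPase, MCM6 (0.968), a subunit of the replicative helicase, and ZRANB2 (0.961), a splicing factor. MCM6 was at 56.0 and 61.3 CPM in M1 and 122 and 121 CPM in M2, and like CCNE2 it was lower in the first than in the second M3 library. Nearest to CDKN1C were CDH16 (0.974), a cadherin, RIT1 (0.961), a RAS-related GTPase, and ZNF343 (0.958), a zinc finger protein. CDH16 had 1083 counts in the library labelled M1 replicate 1 and 0 in the library labelled M1 replicate 2, the same split as CDKN1C.

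The other genes of the G1 step were read from a list of 31, of which 29 were tested. Like the lists that follow, it was chosen with earlier results of these data known, so its counts and p-values are a description. In M4 against M1 edgeR called 5 higher and 3 lower, which is 27.6% of the list beside 20.7% of all genes, with a median log2 fold change of 0.05 against -0.02 for all genes. Those higher were CDK2, the partner of the E-type cyclins (1.05 ± 0.13, SE, adjusted p = 0.00145), CDC25A, the phosphatase that activates it (1.52 ± 0.23, adjusted p = 0.00295), CKS1B, RBL1 and E2F1. CDKN1A, which encodes the third Cip/Kip inhibitor p21, was among those lower (-1.36 ± 0.19, adjusted p = 0.00216). It was at 311 and 228 CPM with M1, 347 and 342 with M2, 302 and 264 with M3 and 116 and 94.2 with M4, so that both M4 libraries lay below every other. With the libraries exchanged, 2 of the list were called, both lower, and CDKN1A was one of them (-1.65, adjusted p = 0.0109). Over all genes the exchange left 1559 of 18431 called in M4 against M1, against 3821 as labelled. With both left out 4 were called higher and 1 lower, and CDKN1A stood at -1.57 (adjusted p = 0.00802).

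In M4 against M3, both grown without EGF, 1 gene of this list was higher, E2F1 (1.19 ± 0.27, adjusted p = 0.0232), and 4 were lower, among them CDKN1A (-1.43 ± 0.19, adjusted p = 0.00497). That is 17.2% of the list beside 10.3% of all genes. On exchange 3 of the list were called in this comparison, all lower, beside 830 of 18431 genes. This comparison holds neither exchanged library. E2F1 stayed at 1.19 while its SE went from 0.27 to 0.32, because the fit shares its spread across the lines. In M2 against M1 there were 2 higher, CDC25A and RBL1, and none lower, which is 6.90% of the list beside 3.37% of all genes. In M3 against M2 edgeR called none of the 29, beside 4.15% of all genes, with 7 at an unadjusted p under 0.05 and 1 by DESeq2. RB1 was not called in any comparison and stood at 38.7 to 65.8 CPM. In M4 against M1 it passed the adjusted p but not the fold threshold (0.58 ± 0.14, adjusted p = 0.0171, edgeR). On exchange RB1 gave 0.24 there (adjusted p = 0.603). SKP2, the ubiquitin ligase subunit that marks p27 for destruction, was at 22.7 and 27.1 CPM for the M1 libraries, 48.0 and 48.3 for those of M2, 31.7 and 38.4 for those of M3 and 17.2 and 22.7 for those of M4. SKP2 passed the adjusted p but not the fold threshold in M2 against M1 (0.95 ± 0.19, adjusted p = 0.0317, edgeR) and in M4 against M3 (-0.81 ± 0.19, adjusted p = 0.0256). In M4 against M1 it gave -0.32 ± 0.19 (adjusted p = 0.227), and on exchange M2 against M1 was 0.09. CDKN2A and CDKN2B, the INK4 inhibitors that bind CDK4 and CDK6, were at 0 counts in all 8 libraries, which allows up to 3 counts in each. MCF10A is known to have lost this locus. CDKN2C, another gene of the INK4 family, was called lower in M4 against M3 and in M4 against M1 (-2.19 ± 0.26, adjusted p = 0.00336, and -1.18 ± 0.25, adjusted p = 0.0110). The second of these was -1.48 on exchange (adjusted p = 0.0354) and -1.31 with both libraries left out (adjusted p = 0.0503), which is not a call.

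The genes that the G1 step switches on were read from a list of 30 E2F targets, of which 29 were tested. In M2 against M1 edgeR called 20 higher and none lower, with a median log2 fold change of 1.17 against -0.04 for all genes, and in M4 against M1 it called 17 higher and none lower, with a median of 1.18 against -0.02. These are 69.0% and 58.6% of the list, beside 3.37% and 20.7% of all genes. As these genes were chosen with earlier results of these data known, the excess is a description. Their summed level was 1487 and 1453 CPM in the M1 libraries, 3232 and 3178 in the M2 libraries, 2954 and 3039 in the M3 libraries and 2747 and 3432 in the M4 libraries. Both M1 libraries stood below all others. In M3 against M2 and in M4 against M3 none was called, beside 4.15% and 10.3% of all genes. There were 5 and 4 at an unadjusted p under 0.05 and 0 by DESeq2 in both. MKI67, the proliferation antigen, was at 114 and 57.1 CPM in M1 and 311 and 541 CPM in M4 (2.32 ± 0.38, adjusted p = 0.00422), CDC6, which loads the replicative helicase, rose by 1.98 ± 0.16 (adjusted p = 0.000278) and RRM2, a subunit of ribonucleotide reductase, by 1.87 ± 0.26 (adjusted p = 0.00209). RFC4, a clamp loader subunit, rose by 1.83 ± 0.15 (adjusted p = 0.000304), while PCNA, the clamp itself, gave 0.80 ± 0.17 (adjusted p = 0.0113) and fell short of the fold threshold.

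These E2F counts rest on the assignment of the 2 doubtful libraries. With them exchanged none of the 29 was called in any comparison (0 at an unadjusted p under 0.05 in M2 against M1 and 1 in M4 against M1), with medians of -0.04 and 0.41. Over all genes the exchange left 1559 of 18431 called in M4 against M1, against 3821 as labelled. The libraries then taken as M1 summed to 1487 and 3232 CPM, and those taken as M2 to 1453 and 3178 CPM, further apart than as labelled. With both left out the median in M2 against M1 was 1.14, with none called and 28 at an unadjusted p under 0.05, and 17 were called in M4 against M1, with a median of 1.13. Leaving out either M2 library leaves M2 with 1 library, and the calls in M2 against M1 are then lost in this list as over nearly all genes. Over all genes, 622 were called in M2 against M1 as labelled, 29 with both left out and 0 with the 2 exchanged (315 at an unadjusted p under 0.05).

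The genes around MYC were read from 2 lists. Of 22 partners, antagonists and regulators, 21 were tested, and in M4 against M1 edgeR called 3 higher and 1 lower, which is 4 of 21 beside 20.7% of all genes, with a median log2 fold change of 0.21 against -0.02 for all genes. CIP2A, which protects MYC from dephosphorylation, rose by 2.23 ± 0.21 (adjusted p = 0.000446), AURKA, a mitotic kinase, by 1.39 ± 0.26 (adjusted p = 0.00662) and MLXIP, a glucose-responsive factor of the MYC network, by 1.58 ± 0.30 (adjusted p = 0.00697). MXD4, a repressor that competes with MYC for MAX, was at 184 and 130 CPM with M1, 73.6 and 66.5 with M2, 42.0 and 34.7 with M3 and 31.2 and 23.3 with M4 (-2.52 ± 0.23 in M4 against M1, adjusted p = 0.000408). The 4 lines did not overlap for MXD4 as labelled, whereas on exchange M1 and M2 overlap and M2 against M1 goes from -1.16 to -0.40. In M4 against M1 it was called on exchange (-2.24, adjusted p = 0.0303) and with both left out (-2.76, adjusted p = 0.00147). CIP2A and AURKA were not called on exchange (adjusted p = 0.168 and 0.468), and MLXIP was (1.35, adjusted p = 0.0367). With both left out CIP2A and AURKA were called (adjusted p = 0.00522 and 0.0366) and MLXIP was not (adjusted p = 0.0594). In M2 against M1 there was 1 higher (CIP2A) and 1 lower (MXD4), which is 9.52% of those tested beside 3.37% of all genes. In M4 against M3 there were 2 higher and 1 lower, 14.3% beside 10.3%. In M3 against M2 edgeR called none, beside 4.15% of all genes, and DESeq2 called none, with 9 at an unadjusted p under 0.05. On exchange none of these genes was called in M2 against M1 or in M4 against M3, with 1 and 8 at an unadjusted p under 0.05. Over all genes the exchange left 0 and 830 of 18431 called in these comparisons. M4 against M3 holds neither exchanged library, and there the exchange acts through the spread shared across the lines.

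Of 50 MYC target genes, all tested, edgeR called 3 higher and 1 lower in M4 against M1, which is 8% of them beside 20.7% of all genes, with a median log2 fold change of 0.32 against -0.02 for all genes. TMEM97, a sterol-regulated membrane protein, was at 31.6 and 32.8 CPM in M1 and 152 and 198 CPM in M4 (2.44 ± 0.19, adjusted p = 0.000244), and ODC1, the first enzyme of polyamine synthesis, rose by 2.20 ± 0.41 (adjusted p = 0.00665). TCOF1, which supports transcription of ribosomal RNA genes, rose by 1.66 ± 0.15 (adjusted p = 0.000425), and EXOSC5, a subunit of the RNA exosome, was lower by -1.33 ± 0.18 (adjusted p = 0.00169). On exchange 2 were called higher and 1 lower in M4 against M1, among them TMEM97 and EXOSC5 (adjusted p = 0.00754 and 0.0206), while ODC1 and TCOF1 were not (adjusted p = 0.0674 and 0.249). Over all genes 1559 of 18431 were called in this comparison on exchange. With both left out ODC1 was not called (adjusted p = 0.0633) and TMEM97, TCOF1 and EXOSC5 were (adjusted p = 0.00414, 0.0104 and 0.0207). In M2 against M1 there were 3 higher and none lower, 6% of the list beside 3.37% of all genes, but none on exchange. In M4 against M3 there were 2 higher and 2 lower, 8% beside 10.3%. In M3 against M2 edgeR called none, beside 4.15% of all genes, with 2 at an unadjusted p under 0.05 and 1 by DESeq2. The summed level of the 50 genes was 9841 and 10462 CPM for the M1 libraries, 15328 and 15120 for those of M2, 16160 and 15100 for those of M3 and 11782 and 13363 for those of M4. The sum is weighted to the most abundant genes. By the median over the 50 genes the M4 libraries were highest, at 6.74 and 6.80 log2 CPM, and M1, at 6.36 and 6.42, overlapped M3, at 6.40 and 6.62.

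**Figure D5:**
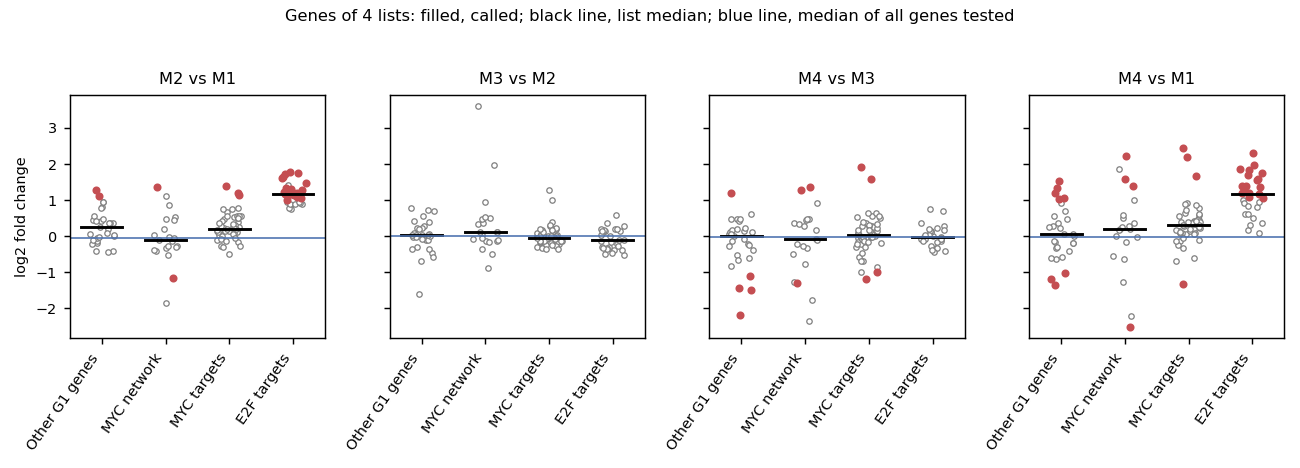
Log2 fold changes of the tested genes of 4 lists in the 4 comparisons; each point is a gene, filled where called, with the list median as a black line and the median of all genes tested as a blue line. The E2F targets lie above 0 in M2 against M1 (median 1.17) and in M4 against M1 (median 1.18) with the libraries as labelled, and near 0 in the other comparisons.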

How the data were processed

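Each of M1 to M4 had 2 biological replicates of RNA-seq, and the starting point was the deposited matrix of RSEM expected counts. The authors selected poly A+ RNA, trimmed paired-end reads with Trimmomatic, aligned them to hg19 with STAR and estimated counts with STAR/RSEM on GENCODE v19. Versions and use of strand are not given in the sources used here. The deposited expected counts, 12.78% of them not whole, were rounded. Coordinates and canonical transcript lengths came from GENCODE release 44 on GRCh37, and CPM per kb is approximate because effective lengths were not used here. Groups came from the sample labels.

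Under R 4.3.3, all 8 libraries were fitted together in edgeR 4.0.16 with TMM factors, filterByExpr and 1 coefficient per line. The 4 lines thus share 1 estimate of the spread for each gene. The close M2 pair therefore also enters the standard errors and adjusted p of comparisons that hold no M2 library. Robust quasi-likelihood tests were adjusted by Benjamini-Hochberg over 18431 genes; a call needed an adjusted p under 0.05 and an absolute log2 fold change above 1. DESeq2 1.42.0 was an alternative. Standard errors were derived from the F statistics, and a floor of 3 counts, which covers counting error only, stood in for 0. The fit was tested on simulated data in which all lines had the same spread. In M4 against M1 it called 177 of 200 changed genes and 12 unchanged genes. Such data cannot check the unequal spread of the lines seen here. Python 3.11.15 with pandas 2.3.3 and matplotlib 3.10.9 did the rest.

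The members and gene lists were chosen with earlier results of these data known. Genes named besides the members are HRAS, 11 core G1 and MYC genes, up to 4 called genes per list with the largest change in M4 against M1 and a minimum of 100 counts in both libraries of the higher line, and the 3 genes most like each of 3 members (mean CPM of at least 1, pseudocount 0.5). CDKN2C, TIGAR, INTS8, PHLDA2, OSBPL5, KCNQ1OT1 and other overlapping genes were named after their values were seen. Replicate numbers did not pair the libraries. Alternatives were other size factors, filters, thresholds and samples, a replicate block, and leaving out each library.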

Additional observations from a re-analysis of the deposited data

How the results depend on the processing

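Size factors by the RLE method, a filter of at least 1 CPM in 2 libraries and a replicate block kept every count of called genes in the members and 4 lists within 1.5 times its reported value. Exchanging M1 replicate 2 and M2 replicate 1 moved 12 of the 20 counts, and dropping the threshold on the fold moved 13. In M2 against M1 the exchange left 0 called among the members, other G1 genes, MYC network, MYC targets and E2F targets. In M4 against M3 it left 3 other G1 genes, 0 of the MYC network and 2 MYC targets, and in M4 against M1 it left 1 member, 2 other G1 genes, 2 of the MYC network and 0 E2F targets. It turned the log2 fold change of CCNE2 in M2 against M1 to -0.13. The sign in that comparison also changed for CCNE1 (0.41 to -0.09), CDK6 (0.50 to -0.11), CDKN1B (-0.52 to 0.15) and MYC (-0.16 to 0.04). With both left out, 0 were called in M2 against M1 in each of the 5 sets, and 5 other G1 genes in M4 against M1. Without a filter on low counts there were 2 members and 4 of the MYC network in M2 against M1, 2 members, 1 other G1 gene, 1 of the MYC network and 1 MYC target in M3 against M2, and 5 of the MYC network in M4 against M3. DESeq2 gave 2 members in M2 against M1, 1 other G1 gene and 1 MYC target in M3 against M2, and 5 and 7 of the MYC network in M4 against M3 and M4 against M1. Fitting only the 2 lines compared gave 1 other G1 gene and 1 of the MYC network in M3 against M2, 2 MYC targets in M4 against M3 and 5 other G1 genes in M4 against M1. With no threshold on the fold there were 5 other G1 genes in M2 against M1. In M3 against M2 there were then 3 members, 2 other G1 genes, 1 of the MYC network and 1 MYC target, in M4 against M3 8, 5, 11 and 1 of the other G1 genes, MYC network, MYC targets and E2F targets, and in M4 against M1 4 members, 13 other G1 genes, 7 of the MYC network and 14 MYC targets. Why these settings differ was not tested.

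Leaving out each library in turn gave 0 to 1 members, 0 to 2 other G1 genes, 0 to 3 of the MYC network, 0 to 3 MYC targets and 0 to 22 E2F targets in M2 against M1. In M3 against M2 it gave 1 to 2 members and 0 to 1 of the other G1 genes, of the MYC network and of the MYC targets. In M4 against M3 it gave 0 to 4 of the MYC network and 2 to 7 MYC targets, and in M4 against M1 2 to 4 members. In M2 against M1, leaving out either M2 library gave 0 in each of the 5 sets. Leaving out M1 replicate 1 gave 0 members and 0 other G1 genes, and leaving out either M4 library gave 0 members. Under these settings other than the exchange, 535 log2 fold changes of members moved by less than the spread between replicates and 5 by more. This count does not measure stability. With 2 libraries per line, leaving out 1 seldom moves a mean by more than the spread of the pair. Many of these fits also leave out a library that the comparison does not hold. Over all genes, M2 against M1 had 1325 calls by DESeq2, 1788 without a filter and 2 and 0 without M2 replicates 1 and 2, against 622. M4 against M3, which holds neither exchanged library but shares the estimate of the spread, had 830 calls on exchange against 1897. M4 against M1 had 1559 on exchange against 3821.

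Replicate numbers did not pair the libraries, since the correlations of replicate differences between lines ran from -0.0244 to 0.122. The replicate block gave 587 calls in M2 against M1 over all genes, with 20 E2F targets and 1 member among them. At these depths a gene with few counts, such as CDKN1C in M2, is limited by counting error, and with 2 libraries per line an SD rests on a single difference.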
